A study of Mus musculus with 3 samples.

Results

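Egr1, Egr2, Egr3, Nr4a1, Nr4a2, Nr4a3, Ier2, Ier3 and Ier5 are immediate early genes, and the occupancy of each by Ser5-phosphorylated Pol_II was measured in macrophages before and 2 h after LPS. The 9 genes, 3 of each family, were chosen by name and found in the GENCODE M1 annotation of the mouse assembly mm9 among 22349 protein-coding genes of chromosomes 1 to 19 and X. Immediate early genes are switched on within minutes of a stimulus, with no need for new protein synthesis, and for many of them the transcript level falls again soon after. Egr proteins are zinc finger transcription factors that bind GC-rich sites, Nr4a proteins are orphan nuclear receptors that act without a known natural ligand, and in macrophages both limit or shape the inflammatory response. Ier2 and Ier5 encode related nuclear proteins, whereas Ier3 (also called IEX-1) encodes an unrelated protein that acts on cell survival and on ERK and NF-kB signalling. The question was which of these genes still carried Ser5 Pol_II at 2 h and which no longer did. No sample was taken in between, so a rise that began and ended before 2 h would not be seen.

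The cells were macrophages differentiated for 7 days from the bone marrow of female Fvb mice (Fvb/Hsd in the study's methods). There were 3 ChIP-Seq libraries: Ser5 from untreated cells, Ser5 from cells given 10 ng/ml LPS (lipopolysaccharide, the bacterial outer membrane component sensed by Tlr4) for 2 h, and input DNA of untreated cells, which is chromatin sequenced without immunoprecipitation. Ser5 is the form of Pol_II phosphorylated on serine 5 of the C-terminal domain repeat, a mark of polymerase that has initiated transcription and that is densest near the transcription start site (TSS). The labels give LPS alone for the stimulated cells, whereas a figure of the study names LPS with γIFN (interferon gamma), so a part of γIFN in the ratios below cannot be told apart from that of LPS if it was added. With 1 library for each condition the spread between replicates is unknown and nothing was tested, and the intervals given are 95% intervals that cover counting error alone. PCR copies were kept in the deposited tags and are not independent molecules.

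On the chromosomes used the library of untreated Ser5 held 7616771 tags, that of Ser5 after LPS 6249819 and that of input 7533308. Levels are given in TPM, which here means tags scaled to a library of 1000000 tags. All 9 macrophage markers of the list used (Csf1r, Emr1, Cd14, Itgam, Lyz2, Sfpi1, Cd68, Fcgr1 and Mertk) had a Ser5 peak at the TSS in both libraries, with densities from 6.89 to 117 TPM per kb in untreated cells and from 2.88 to 90.1 after LPS. None of the markers of B cells (5 genes), T cells (5), dendritic cells (4), erythroid cells (4), fibroblasts (4) and mast cells (3) had one in either library, and of the 5 neutrophil markers 1 did in each, the densities of that list running up to 1.97 before and 4.64 after LPS. Over all coding genes with at least 10 Ser5 tags the median ratio of LPS to untreated, each scaled to the tags of its library, was 0.874 over the gene (17385 genes) and 0.831 within 1 kb of the TSS (12535 genes), which on the log2 scale are shifts of -0.19 and -0.27. A ratio of 1 for a member therefore lies above the median gene. Scaling by tags that fell outside the Ser5 peaks moved these medians to 0.940 and 0.894.

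The promoters shown are those of 5 of the 6 members that carry CArG boxes or cyclic AMP response elements (CRE), the sites of the factors Srf and Creb1 that are known to drive immediate early genes; that of Egr1 is described without its sequence. Each is the 200 bases before the TSS in mm9, read 5′ to 3′ on the strand of the gene, with CArG boxes and matches to the CRE (TGACGTCA) or its core (TGACG), on either strand, in capitals. The windows are chr10:67000417-67000616 on the plus strand for Egr2, at the annotated start with the most Ser5 tags, chr15:101097077-101097276 on the plus strand for Nr4a1, chr2:56976415-56976614 on the minus strand for Nr4a2, chr4:48057825-48058024 on the plus strand for Nr4a3 and chr8:87186752-87186951 on the minus strand for Ier2.
Egr2: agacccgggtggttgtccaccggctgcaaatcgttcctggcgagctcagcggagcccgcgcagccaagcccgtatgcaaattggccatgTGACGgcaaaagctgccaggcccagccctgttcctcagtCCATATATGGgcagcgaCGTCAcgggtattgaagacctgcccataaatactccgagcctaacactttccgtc
Nr4a1: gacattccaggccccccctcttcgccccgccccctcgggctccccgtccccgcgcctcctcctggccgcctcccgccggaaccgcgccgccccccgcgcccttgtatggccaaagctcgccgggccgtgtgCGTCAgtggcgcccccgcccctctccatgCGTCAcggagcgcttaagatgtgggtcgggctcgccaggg
Nr4a2: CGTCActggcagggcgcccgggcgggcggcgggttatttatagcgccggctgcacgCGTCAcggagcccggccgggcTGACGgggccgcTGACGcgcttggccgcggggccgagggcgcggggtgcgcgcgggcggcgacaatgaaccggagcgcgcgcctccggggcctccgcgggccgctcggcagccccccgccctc
Nr4a3: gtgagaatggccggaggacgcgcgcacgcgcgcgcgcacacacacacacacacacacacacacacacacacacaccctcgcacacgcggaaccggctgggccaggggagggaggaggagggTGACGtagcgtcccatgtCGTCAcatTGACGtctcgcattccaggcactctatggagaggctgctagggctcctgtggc
Ier2: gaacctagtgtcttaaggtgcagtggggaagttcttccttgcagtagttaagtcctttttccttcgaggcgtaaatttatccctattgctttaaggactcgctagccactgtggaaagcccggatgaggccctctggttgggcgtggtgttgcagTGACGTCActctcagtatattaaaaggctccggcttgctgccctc

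The CRE core occurred before the gene start of 5 of 9 members (Egr1, Nr4a1, Nr4a2, Nr4a3 and Ier2), beside 17.2% of 22344 coding promoters of the same length. Nr4a2 held 4 such matches, Nr4a3 3 and Nr4a1 2, and in Ier2 the match was the full CRE, from -45 to -38 relative to the TSS, which holds the core on both strands. The full CRE was found in 1.84% of coding promoters. The CArG box was found before the gene start of Egr1 only among the 9, in 2 places from -105 to -96 and from -83 to -74, and in 1.06% of coding promoters. Egr2 has a CArG box from -72 to -63 of its most tagged start but none before its annotated gene start, a further 2394 bases upstream. The EGR site GCGGGGGCG was found in Nr4a1, from -60 to -52, and in 3.01% of promoters, whereas the variant GCGTGGGCG was found in no member and in 0.613%. A loose NF-kB pattern, GGG and CC with any 5 bases between them, was found in 5 members and in 45% of promoters, and TATAAA in Nr4a2 and in 10.1%. No member held AAAGGTCA, the site of the Nr4a proteins (0.877% of promoters), TGANTCA of AP-1 (4.80%) or CCGGAAG of the ETS factors (7.59%). These are matches of letters, on either strand, and binding of the factors was not measured.

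At the TSS the Ier genes carried the most Ser5, Nr4a2 came next, and the Egr genes with Nr4a1 and Nr4a3 carried little. In a mixed population of cells, fewer cells with Pol_II on a gene and less Pol_II per cell cannot be told apart. In untreated cells the order of density, in TPM per kb within 1 kb of the TSS, was Ier3 at 51.6 (interval 48.1 to 55.4), Ier5 at 49.5 (46.1 to 53.2), Ier2 at 40.4 (37.3 to 43.7), Nr4a2 at 7.74 (6.41 to 9.27), Egr1 at 3.35, Nr4a1 at 2.69, Nr4a3 at 2.03, Egr2 at 1.05 and Egr3 at 0.722. Intervals of neighbours in this order were apart between Ier5 and Ier2, between Ier2 and Nr4a2 and between Nr4a2 and Egr1, and overlapped between all others. After LPS the order was the same but for Nr4a1, at 3.76, and Egr1, at 3.20, which changed places within overlapping intervals. The densities of the 4 leading genes were then 54.5 for Ier3, 47.1 for Ier5, 29.4 (26.5 to 32.6) for Ier2 and 10.3 (8.61 to 12.3) for Nr4a2, again with a gap after Ier5, Ier2 and Nr4a2.

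**Figure D1:**
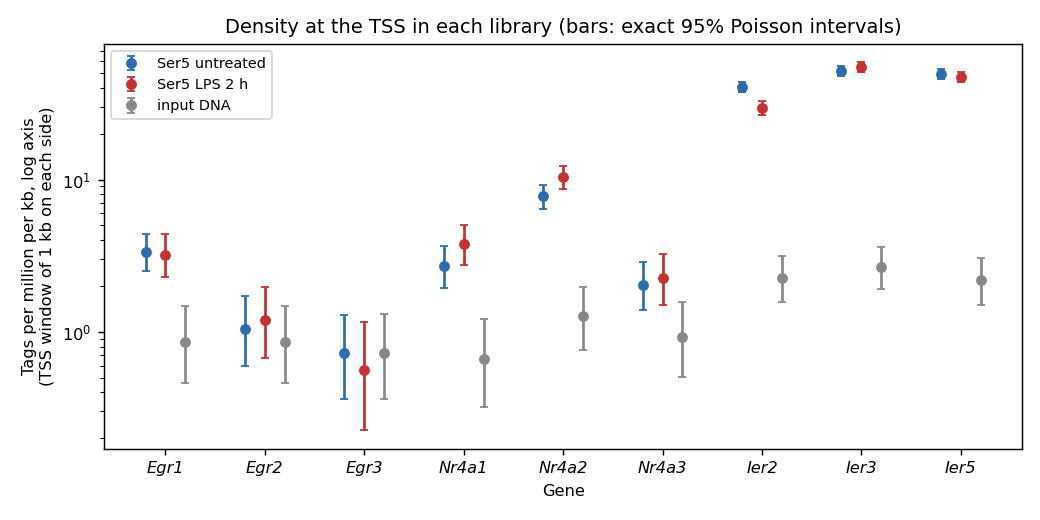
Density of tags within 1 kb of the TSS of each gene, in TPM per kb on a log axis, for Ser5 in untreated cells (blue), Ser5 after LPS (red) and input DNA (grey); points are single libraries and bars are exact 95% Poisson intervals. Ier2, Ier3 and Ier5 stand highest in both Ser5 libraries (29.4 to 54.5 after LPS), and the points of Egr2 and Egr3 lie within the intervals of their input.

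By the measure of Ser5 against input at the TSS, 7 of the 9 genes were occupied before LPS and the same 7 at 2 h, in each case by at least 2-fold over input. Among coding genes with at least 10 tags this held for 71.9% in untreated cells and 70.4% after LPS. The exceptions were Egr2 at its annotated start (1.22 times input untreated and 1.39 times after LPS) and Egr3 (0.989 and 0.767 times). These values depend on the scale. Outside the Ser5 peaks lay 3823266 of the untreated and 2915700 of the LPS tags, but 7191087 of the input tags. Scaled to tags outside the peaks, 8 members passed 2-fold in each Ser5 library, Egr2 being added. The share of all coding genes was not recomputed at that scale. A deposited Ser5 peak within 1 kb of the TSS was present at 8 members in untreated cells, beside 48% of coding genes, and at 7 after LPS, beside 45.9%. Egr3 had none in either library, and Egr2 had 1 in untreated cells only, with a score of 55.6, close to the lowest score of 50 in the list. The scores are minus 10 times the log10 of the peak caller's p-value, so that higher is stronger. The highest score was the same, 3100, at Ier3 and Ier5 in both libraries, so the top scores do not rank genes. Peaks over the gene itself were found at 8 members in both libraries. The share of all coding genes with such a peak was not computed, so this count has no background.

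At the annotated gene start no member passed a 2-fold difference between LPS and untreated in either direction. Among coding genes 14.1% were at least 2-fold lower there and 5.61% at least 2-fold higher. A later annotated start of Egr2, described below, had a ratio of 2.53 (1.56 to 4.21). Over the whole gene 1 member was at least 2-fold lower (Egr3, on 8 and 2 tags) and 1 at least 2-fold higher (Nr4a3), beside 11.2% and 5.82% of coding genes. From 1 kb after the TSS to the gene end, in the 6 members with at least 10 tags there, none was 2-fold lower and 1 was 2-fold higher (Nr4a3), beside 12.2% and 6.64%. The median ratio of the members was 1.06 at the TSS, 1.08 over the gene and 1.35 in the inner body, beside 0.831, 0.874 and 0.886 for all coding genes tested.

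**Figure D2:**
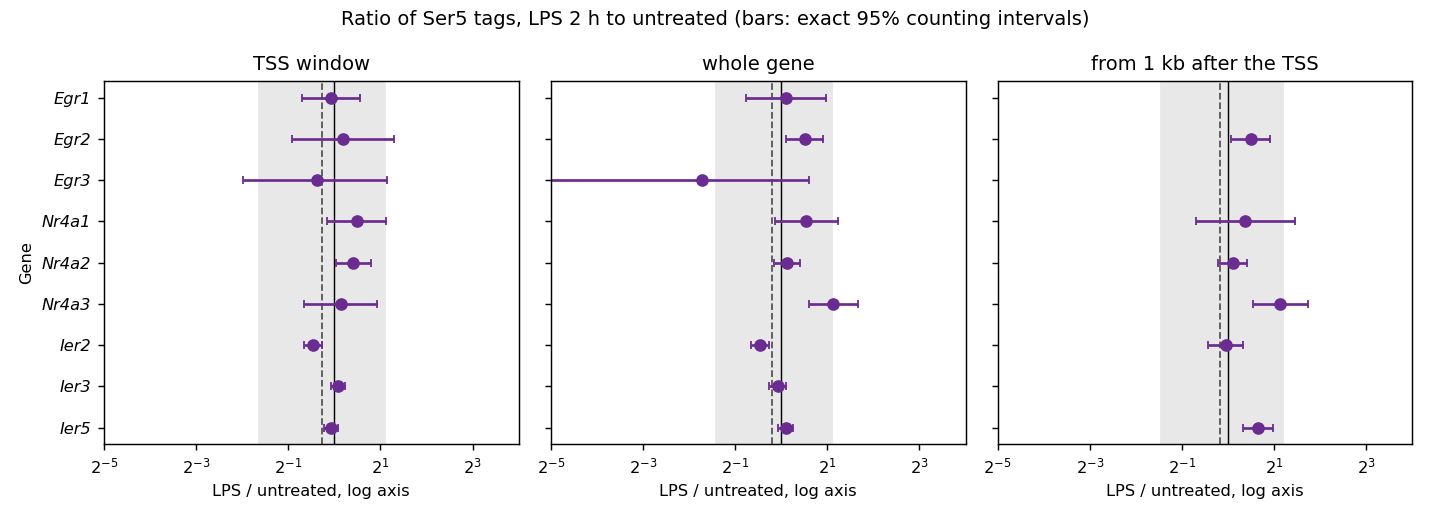
Ratio of Ser5 tags after LPS to untreated, scaled to library size, for each gene at the TSS (left), over the gene (middle) and from 1 kb after the TSS (right), on a log axis with exact 95% counting intervals; the dashed line is the median coding gene and the grey band its 5th to 95th percentile. Ier2 is the gene whose interval lies below 1 at the TSS (0.638 to 0.830), and Nr4a3 reaches 2.18 over the gene. The Egr3 interval in the middle panel runs from 0.0315 to 1.53.

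Ier2 carried less Ser5 after LPS. At the TSS 616 tags were counted in untreated cells, 368 after LPS and 34 in input, a ratio of LPS to untreated of 0.728 (0.638 to 0.830). Over the gene (chr8:87185230-87186751, minus strand, 1522 bp) the tags were 582, 348 and 39, a ratio of 0.729 (0.636 to 0.834). Ier2 was the only member whose interval lay below 1 in either measure, and its ratio was between 0.783 and 0.876 under the other scalings and without duplicate tags, the highest of these values lying above the intervals given. Relative to the median coding gene the ratios were 0.876 at the TSS and 0.834 over the gene. From 1 kb after the TSS the 131 and 104 tags gave a ratio of 0.968 (0.741 to 1.26), and the change of that inner body relative to the TSS window was 1.33 times (0.985 to 1.79), an interval that holds 1. The TSS of Ier2 held 13.1 times the input density after LPS, compared with 17.9 times before, and a single peak covered 100% of the gene in both libraries, with a highest score of 3224 before and 2083 after.

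Ier3 held similar counts in both Ser5 libraries, scaled to their size. It is the shortest member (chr17:35958629-35959868, plus strand, 1240 bp), and its TSS held 787 tags in untreated cells, 682 after LPS and 40 in input, a ratio of 1.06 (0.952 to 1.17). Over the gene the tags were 585, 454 and 13, a ratio of 0.946 (0.835 to 1.07) that became 1.08 when scaled to the median coding gene. Both Ser5 libraries exceeded input over the gene by more than any other member, by 44.5 and 42.1 times. The 2 kb after the gene end held 353 tags before and 154 after LPS, a ratio of 0.532 (0.437 to 0.644), but Flot1, which encodes a membrane raft protein, starts within them at chr17:35960175, and the tags of the 2 genes there cannot be told apart.

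Ier5 carried more Ser5 past its first kb after LPS, while its TSS window did not. At the TSS the 755 untreated and 589 LPS tags (33 in input) gave a ratio of 0.951 (0.852 to 1.06), which is above 1 (1.14) when scaled to the median gene, and over the gene (chr1:156943497-156946766, minus strand, 3270 bp) 685 and 602 tags (39 in input) gave 1.07 (0.958 to 1.20). From 1 kb after the TSS to the end, however, there were 145 tags before and 186 after LPS, a ratio of 1.56 (1.25 to 1.96). The density of that inner body relative to the TSS window went from 0.169 to 0.279, a change of 1.64 times (1.28 to 2.11), while the median change over 9145 coding genes with at least 50 tags in each region was 1.06. The change at Ier5 lay at percentile 88.2 of those genes. Among bins of 250 bp past the first kb, the largest gain lay from 1250 to 1500 bp, with 40 and 69 tags. The peak from 2066 to 2435 bp held 21 and 19 tags, a ratio of 1.10 (0.561 to 2.155). That from 2563 to 2943 bp held 24 and 23, a ratio of 1.17 (0.630 to 2.16). Both intervals hold 1. In the 2 kb after the gene end the ratio was below 1, at 0.640 (0.430 to 0.941) on 80 and 42 tags. Ier3 is too short to have an inner body.

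**Figure D3:**
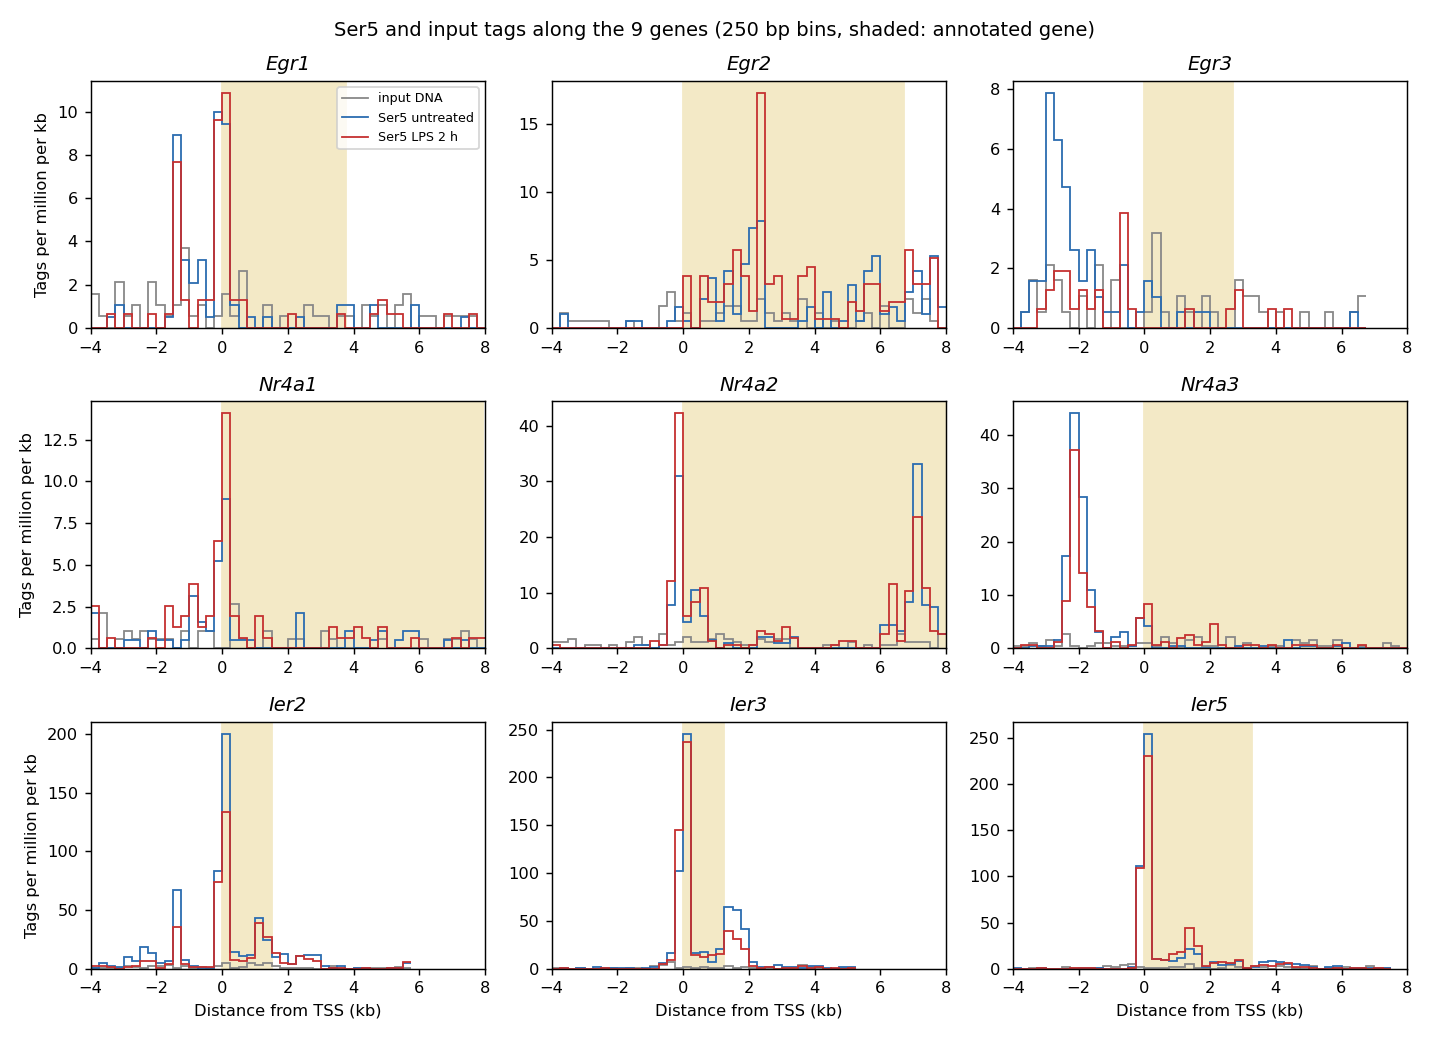
TPM per kb in 250 bp bins from 4 kb before the TSS of each gene to 4 kb after its end or 8 kb after the TSS, for input (grey), Ser5 untreated (blue) and Ser5 after LPS (red); the annotated gene is shaded and each panel has its own axis. Ier2, Ier3 and Ier5 have a sharp TSS peak in both Ser5 libraries, the Egr2 peak lies 2394 bases inside the gene, and Nr4a3 and, in untreated cells, Egr3 have more Ser5 upstream than at the TSS.

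Nr4a2 was the most occupied of the Nr4a genes and carried somewhat more Ser5 at its TSS after LPS. The TSS held 118 tags before, 129 after LPS and 19 in input, a ratio of 1.33 (1.03 to 1.73), and 6.14 and 8.18 times the input density. This was the only member whose interval at the annotated gene start lay above 1, and its ratio stayed between 1.27 and 1.60 under the alternatives. Over the gene (chr2:56959241-56976414, minus strand, 17174 bp) there were 222 and 198 tags, with 113 in input, and the ratio was 1.09 (0.893 to 1.32). A second concentration lay inside the gene between 6596 and 7898 bp after the TSS, at chr2:56968516-56969818, with peak scores of 656 before and 391 after LPS. It held 116 and 80 tags with 13 in input, a ratio of 0.841 (0.624 to 1.13) whose interval holds 1. The shorter annotated transcripts begin further on, and the next most tagged start, 8965 bp into the gene, had 20 and 13 tags.

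Nr4a1, which encodes Nur77, had a small peak at its TSS in both libraries. The TSS held 41 tags before, 47 after LPS and 10 in input, a ratio of 1.40 (0.899 to 2.18), and 4.06 and 5.67 times input. The peak at the TSS scored 173 before and 252 after LPS and was 232 and 408 bp long. Over the gene (chr15:101097277-101105223, plus strand, 7947 bp) the counts were 36, 43 and 20, a ratio of 1.46 (0.913 to 2.33). Both intervals hold 1. From 1 kb after the TSS the 16 and 17 tags were 1.13 (0.517 to 2.50) and 1.46 (0.679 to 3.21) times input, with intervals that hold 1. Ser5 past the first kb was thus not detectable above input when scaled to all tags. Scaling to tags outside the Ser5 peaks would raise these values, and was not done for this region.

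Nr4a3 had the largest ratio of the 9 over the gene, but at a low level. Over its 41295 bp (chr4:48058025-48099319, plus strand) 48 tags were counted before and 86 after LPS, a ratio of 2.18 (1.52 to 3.18), which lay between 2.09 and 2.50 under the alternatives. Input held 166 tags there, so Ser5 over the gene, scaled to all tags, was 0.286 times input before and 0.625 times after LPS, below input in both. Scaling to tags outside the Ser5 peaks would raise these values against input, and was not done for this region. The same held from 1 kb after the TSS, with 39 and 70 tags and a ratio of 2.19 (1.46 to 3.32). The TSS itself held 31, 28 and 14 tags, 2.19 and 2.41 times input, with a ratio of 1.10 (0.636 to 1.90). The change of the inner body relative to the TSS was 1.99 times (0.992 to 3.98), an interval that just holds 1, so a difference between the start and the rest of the gene was not detectable. By the distance over 4 log2 densities (TSS and gene, in both Ser5 libraries), the genes most like Nr4a3 of 14335 with at least 50 tags were Plekha5 (0.483), Ly75 (0.503) and Fam199x (0.629), with ratios over the gene of 2.04, 1.61 and 1.48. These distances describe 2 libraries and say nothing of function.

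Of the Egr genes, Egr2 carried more Ser5 after LPS over the gene and at its most tagged start, but not detectably at its annotated start. The annotated gene (chr10:66998223-67004936, plus strand, 6714 bp) begins upstream of most of its tags, and its first 1 kb on each side held only 16, 15 and 13 tags (untreated, LPS and input). The start with the most tags, at chr10:67000617, had 42 before, 61 after LPS and 16 in input, a ratio of 1.77 (1.18 to 2.69). That start was chosen by its tags in these same Ser5 libraries. A further start, at chr10:67001431, had 26 and 54 tags in an overlapping window, a ratio of 2.53 (1.56 to 4.21). Over the whole gene the counts were 102, 119 and 37, a ratio of 1.42 (1.08 to 1.87), and from 1 kb after the annotated start 90 and 104, a ratio of 1.41 (1.05 to 1.89). Ser5 over Egr2 was 2.73 times input before LPS and 3.88 times after. Its peaks covered 21.7% of the gene in untreated cells and 12.7% after LPS, since of 3 and 2 peaks the 1 at the tagged start was shared and the others were found in a single library.

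Egr1 had a short peak at its TSS in both Ser5 libraries. On chromosome 18 (35020861 to 35024638, plus strand, 3778 bp) its TSS window held 51 tags before, 40 after LPS and 13 in input, a ratio of 0.956 (0.616 to 1.48) that lay above 1 (up to 1.15) under some scalings, and 3.88 and 3.71 times input. The peak scored 227 before and 267 after LPS. Past the first kb there were 5 and 2 tags, fewer than the 8 of input. Over the gene 26, 23 and 17 tags gave a ratio of 1.08 (0.588 to 1.97). The annotation places the antisense gene Gm17507 over the 3′ end of Egr1, and tags of the 2 there cannot be assigned to either.

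Egr3 was the member at which Ser5 was not detectable above input at either time. Its TSS window held 11 tags before, 7 after LPS and 11 in input, a ratio of 0.776 (0.255 to 2.19). Over the gene (chr14:70477252-70479964, plus strand, 2713 bp) 8 tags were counted before and 2 after LPS against 14 in input, a ratio of 0.305 (0.0315 to 1.53). The interval holds 1, so the 2-fold lower value of Egr3 was not detectable as a difference at this depth. The genes nearest to Egr3 in the same 4 densities were Prune2 (0.454), Syne1 (0.537) and Dhrs9 (0.537), with ratios over the gene of 0.391, 0.512 and 0.536.

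Upstream and downstream of the members lay extragenic Ser5 regions, defined as deposited peaks within 50 kb of a member and outside every coding gene and its first 1 kb upstream, merged over both libraries. There were 42, and for 21 of them the member was the nearest coding gene. Of the 42, 20 were peaks in untreated cells only, 5 after LPS only and 17 in both, that is 47.6%, 11.9% and 40.5%, beside 45.7%, 25.1% and 29.3% of all 15623 extragenic regions. At least 2-fold lower after LPS were 13 (31.0%) and at least 2-fold higher 2 (4.76%), while among all 14407 extragenic regions with at least 10 tags 36% were lower and 21.8% higher. The median ratio was 0.643 near the members and 0.731 over all regions. A region called in a single library was selected by the peak of that library. Such a choice tends to draw its ratio away from 1, which the interval does not cover. The same selection applies to all extragenic regions. Most of the 13 lay near Nr4a1 (5 of its 8 regions) and Ier5 (4 of 7), the others near Egr3 (2 of 2) and Ier2 (2 of 10). Of the 5 near Nr4a1, only that at -12616 bp had Nr4a1 as its nearest coding gene. Nr4a2 had no extragenic region within 50 kb.

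**Figure D4:**
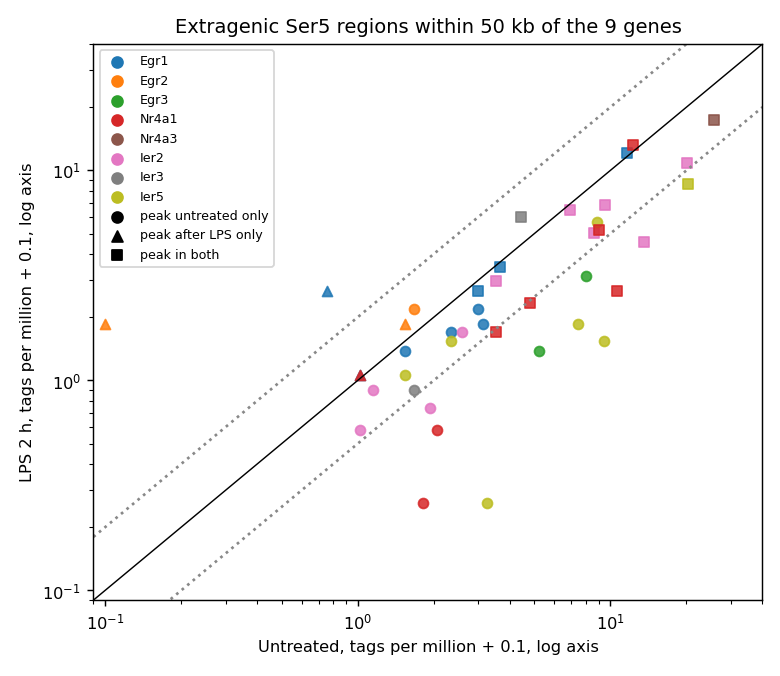
Each of the 42 extragenic Ser5 regions by its TPM in untreated cells (x) and after LPS (y), both with 0.1 added and on log axes; the colour gives the member within 50 kb and the shape the library in which the peak was called. The solid line is equality and the dotted lines are 2-fold: 13 regions lie below the lower line and 2 above the upper one.

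All 7 regions of Ier5 had Ier5 as the nearest coding gene and lay downstream, and 6 of them were peaks in untreated cells only. The region at 39947 bp from the TSS (chr1:156906464-156907174) held 71 tags before and 9 after LPS (ratio 0.155, 0.0679 to 0.310), and that at 15765 bp from 56 to 11, a ratio of 0.239 (0.113 to 0.462). The region at 43378 bp went from 24 tags to 1, a ratio of 0.0508 (0.00124 to 0.311), and the largest, at 48888 bp, from 154 to 53, a ratio of 0.419 (0.301 to 0.577). The other 3 regions were not 2-fold lower, with ratios of 0.665 (0.202 to 1.96) at 50491 bp, 0.645 (0.253 to 1.53) at 34168 bp and 0.637 (0.411 to 0.972) at 4056 bp, the region nearest to the gene. All 7 ratios lay below that of the Ier5 TSS, 0.951, but 2 of the 7 intervals hold 1. The 6 regions called in untreated cells only were selected by their untreated peaks, which tends to lower their ratios.

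The 2 regions just upstream of Ier2, with Ier2 as their nearest gene, also had fewer tags after LPS. At -1403 bp (chr8:87187857-87188452) 153 tags became 67, a ratio of 0.534 (0.394 to 0.716), and at -2352 bp (chr8:87188497-87189710) 103 became 28, a ratio of 0.331 (0.210 to 0.507). The second passed 2-fold and the first did not, and both ratios lay below that of the Ier2 TSS, the interval of the second lying wholly below the interval of the TSS.

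Nr4a1 and Nr4a3 had Ser5 upstream of the gene. The most tagged of the 8 regions of Nr4a1, at -20351 bp and nearest to Grasp, held 93 tags before and 82 after LPS, a ratio of 1.08 (0.789 to 1.46). Closer to Nr4a1, the regions at -4160 bp and -12616 bp held 68 and 26 tags before and 32 and 10 after LPS, ratios of 0.574 (0.365 to 0.885) and 0.469 (0.202 to 1.01). On the downstream side the most tagged region, at 31393 bp and nearest to 6030408B16Rik, held 80 tags before and 16 after LPS (ratio 0.244, 0.133 to 0.420). For Nr4a3 the single region, at -1928 bp (chr4:48055556-48056639), held 196 tags before and 108 after LPS with 8 in input, a ratio of 0.672 (0.526 to 0.854), and so held more tags in both libraries than the 2 kb around the TSS. Nr4a3 thus had a ratio below 1 upstream and one above 2 along the gene, where Ser5 scaled to all tags was below input.

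Near the Egr genes the regions went both ways. Both regions of Egr3 were peaks in untreated cells only, and that at -2547 bp (chr14:70474321-70475090) held 39 tags before and 8 after LPS (ratio 0.250, 0.101 to 0.543). The other, at -11329 bp and nearest to Pebp4, held 60 and 19 (ratio 0.386, 0.218 to 0.656). These regions were selected by their untreated peaks, which tends to lower their ratios. Egr3 thus had extragenic Ser5 peaks before LPS without a peak at its TSS. Of the 9 regions of Egr1 none was 2-fold lower, and those at -4831 and -1328 bp held 27 and 22 tags before and 21 and 13 after LPS. The 2 regions that were higher lay at -10876 bp of Egr1, nearest to Reep2, with 5 and 16 tags (ratio 3.90, 1.37 to 13.6), and at 30886 bp of Egr2, nearest to Gm10797, with 0 tags before and 11 after LPS, where the exact interval of the ratio begins at 3.06. Both were peaks after LPS only and were thus selected by the library in which they were high.

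Genes that act with or beside the members were read from lists. Among all coding genes with at least 10 tags, 11.2% were at least 2-fold lower over the gene and 5.82% at least 2-fold higher. Of 24 other immediate early genes 5 were at least 2-fold lower over the gene and 7 at least 2-fold higher, with a median ratio of 1.05. Dusp2, a nuclear MAP kinase phosphatase, had the largest ratio of that list, 3.82 (80 and 251 tags, interval 2.96 to 4.98), and Cyr61, a matrix protein, the smallest, 0.163 on 15 and 2 tags (0.0180 to 0.699). Of 15 genes of the serum response and ERK path 1 was lower, Elk3, a ternary complex factor, at 0.400, and none was higher. Of the 6 partners and relatives of the Egr and Nr4a proteins with at least 10 tags, 1 was lower, Rxra, the retinoid X receptor that pairs with Nr4a1 and Nr4a2, at 0.295. Of 8 housekeeping genes 1 was higher, B2m, the MHC class I light chain, at 2.34.

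All 15 genes of the LPS response list were at least 2-fold higher, with a median ratio of 28.4, from Nfkbia at 6.19, the NF-kB inhibitor, to the chemokine gene Ccl5 at 396. Ccl5 went from 24 to 7801 tags. The ratios of the 9 members, from 0.305 to 2.18 over the gene, lay wholly below those of this list. The list was chosen as LPS response genes, with earlier results of these data known, so its high ratios are partly fixed by that choice.

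**Figure D5:**
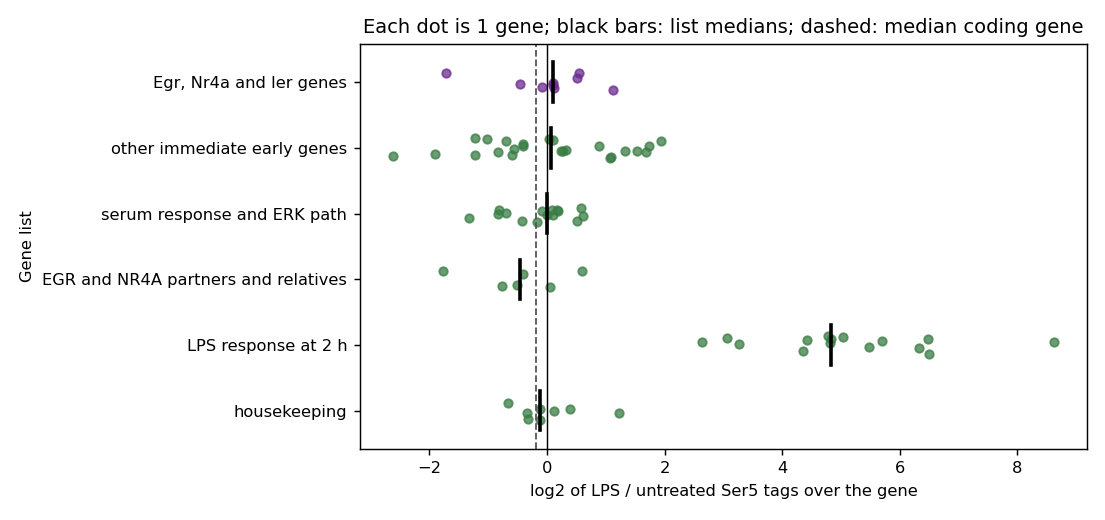
Log2 ratio of LPS to untreated Ser5 tags over the gene for the 9 members (purple) and the genes of 5 lists (green); each dot is 1 gene with at least 10 tags, black bars are list medians and the dashed line is the median coding gene. The members and the 24 other immediate early genes lie on both sides of 0, with medians of 1.08 and 1.05 as ratios, while the 15 LPS response genes lie between 6.19 and 396.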

How the data were processed

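Ser5 Pol_II ChIP-Seq of untreated and LPS-treated macrophages and input DNA were re-analysed from aligned tags and peak lists. The authors trimmed reads from the 3′ side and used Bowtie with mm9, keeping unique matches. The deposited tag files hold positions with no normalization, from which tag counts were made here, and the tags span 45 bases (untreated), 30 (LPS) and 36 (input), while the study's methods give the first pair of lengths the other way round. In the deposited peak lists the authors gave each peak a score, minus 10 times the log10 of the p-value of MACS, run per library against input. Tool versions are not given in the sources used here.

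Tags on chromosomes 1 to 19 and X were counted by their 5′ end over each gene, within 1 kb of its 5′ end (TSS) and from there to its end, per 1000000 tags of the library (TPM). GENCODE M1 has the assembly of the files. Intervals are exact Poisson (levels) and exact binomial conditional on the sum (ratios), at 95%. The rule of size was 2-fold for regions with 10 or more Ser5 tags in all. A peak was at a TSS when it overlapped the window by 1 bp. The 9 members and the lists were chosen with earlier results of these data known. Named genes are the members, the genes of extreme ratio in each list among those past 2-fold, and the 3 genes most like the members of extreme ratio. Alternatives were other scalings, duplicates reduced to 1 tag, a 75 bp move of tags, unique 30-base sequences, other starts and windows, a 1.5-fold rule, no tag minimum, and stricter peaks and distances. The functions were tested on simulated data. Python 3.11.15, numpy 2.4.6, pandas 2.3.3, scipy 1.17.1, numba 0.67.0 and matplotlib 3.10.9 were used.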

Additional observations from a re-analysis of the deposited data

How the results depend on the processing

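No paired analysis was possible because each condition had a single library. Of 60 recomputed counts of members or regions 51 stayed within 1.5 times the value given (the members' medians and shares were not recomputed), and of 145 recomputed ratios of single genes 135 stayed within their interval, with no ratio past 2-fold changing direction. Moving tags 75 bp downstream left 0 members at least 2-fold lower over the gene, because Egr3 then fell below the minimum of 10 tags and was not counted. Peaks with a score of at least 100 gave 11 extragenic regions in untreated cells only, 2 after LPS only and 10 in both, with 0 at least 2-fold higher. Within 20 kb of a member there were 10 in untreated cells only and 11 in both, with 5 at least 2-fold lower and 1 higher. These last alternatives use fewer regions by construction. Scaled to the median coding gene, the ratio of Ier2 was 0.834 over the gene and 0.876 at the TSS, and with 1 tag per position and strand 0.872 and 0.860, still below 1. For Ier5 the same settings gave 1.23 and 1.28 over the gene, and 1.14 and 1.08 at the TSS. Depth limits the low genes most: the Egr genes, Nr4a1 and Nr4a3 rest on 51 untreated tags or fewer at the TSS, where the intervals of the ratios run from 0.255 to 2.19 for Egr3, the widest, and from 0.616 to 1.48 for Egr1.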

Other observations

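Among the 24 other immediate early genes the Ser5 ratios over the gene went both ways, in genes with many tags. These genes were chosen after their values were seen. Klf10, a Krüppel-like factor, went from 550 to 121 tags (ratio 0.268, interval 0.218 to 0.327), Jun from 804 to 283 (0.429, 0.373 to 0.492) and Fos, its partner in AP-1, from 486 to 197 (0.494, 0.417 to 0.584). Junb, another AP-1 subunit, went from 832 to 1435 tags (2.10, 1.93 to 2.29) and Atf3, a repressor of the ATF family, from 943 to 2572 (3.32, 3.08 to 3.59). Gadd45b, a stress response gene, went from 301 to 796 (3.22, 2.82 to 3.69) and Zfp36, which encodes the mRNA-destabilizing protein tristetraprolin, from 792 to 1630 (2.51, 2.30 to 2.73). At the TSS 2 of the 24 were at least 2-fold lower and 4 at least 2-fold higher, with a median ratio of 1.08. Among all coding genes these shares at the TSS were 14.1% and 5.61%.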
